A study of Mus musculus with 9 samples.

Results

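Respiratory chain subunits were compared between 3 strains of HC11 cells, a mouse mammary epithelial line. Members were the genes whose symbol starts with Nduf, Uqcr, Cox4 to Cox8 or Atp5, or is Sdha, Sdhb, Sdhc, Sdhd or Cyc1, and that had a probeset carrying no second symbol. For each gene the probeset with the highest mean was used. This gave 90 of 19937 genes on the arrays, of which 87 had a mean log2 expression of at least 4, a level reached by 13157 genes in all. By complex, 34 members belonged to complex I, 4 to complex II, 9 to complex III, 19 to complex IV and 17 to complex V, and 7 were complex I assembly factors of the Ndufaf group. Ndufa4 and its relative Ndufa4l2 were counted with complex IV, where the Ndufa4 protein is now placed.

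The respiratory chain of the inner mitochondrial membrane passes electrons from NADH (through complex I) and from succinate (through complex II) to coenzyme Q, then by complex III and cytochrome c to complex IV, which reduces oxygen. Complexes I, III and IV pump protons, and complex V, the ATP synthase, uses the gradient to make ATP. All members are nuclear genes whose proteins are imported into the mitochondrion, and a small set of further subunits is encoded by mitochondrial DNA.

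Each strain stably expressed Mkl1, a coactivator of serum response factor (SRF), with a red fluorescent protein (RFP) at its C-terminus. HC11-FL carried full-length Mkl1, HC11-mutB1 carried Mkl1 with a mutated SRF-interaction site, and HC11-ΔSAP carried Mkl1 without the SAP domain. All cells had been transfected, selected with Geneticin and sorted for RFP, so that each construct is represented by 1 sorted strain, and no strain without an Mkl1 construct was arrayed here. Before RNA extraction all cultures were kept for 48 h in RPMI with 0.03% FCS and no EGF. Total RNA was hybridised to Affymetrix mouse gene arrays, 3 per strain. Because replicate arrays come from 1 strain each, p-values measure the spread between these arrays and not between independently derived strains, and in bulk RNA fewer cells of a type and less RNA per cell cannot be told apart.

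All 6 mammary epithelial markers (Krt5, Krt14, Krt8, Krt18, Epcam and Cdh1) had mean log2 levels of 8.77 to 10.97, and all 4 endothelial markers lay below 4. The epithelial markers differed between strains, against HC11-FL with 3 higher and 2 lower in HC11-mutB1 and 2 higher and 4 lower in HC11-ΔSAP cells (limma), among them Krt5 (1.15 and −1.90) and Krt18 (−0.65 and −1.36). Their summed signal (log2 of the summed linear signal) was 12.82 to 12.86 in HC11-FL, 13.10 to 13.13 in HC11-mutB1 and 12.67 to 12.68 in HC11-ΔSAP. Of the leukocyte markers, Ptprc and Itgam were below 4, Cd3e was at 4.70 and Cd68 was at 7.73. Against HC11-FL, Cd68 fell by 0.34 in HC11-mutB1 and rose by 0.45 in HC11-ΔSAP cells, both called. The 5 fibroblast markers had means of 5.03 to 7.01. Pdgfra (0.51 and −0.42) and Pdgfrb (−0.87 and −0.38) were called in both strains, and Col1a1, Col1a2 and Thy1 were not called. Of the adipocyte markers, Adipoq and Ucp1 were below 4 and Plin1 was at 4.62. Fabp4 fell by 0.97 in HC11-mutB1 cells and rose by 1.34 in HC11-ΔSAP cells against HC11-FL. The summed signal of the leukocyte, fibroblast and adipocyte lists, on the same scale, was 7.97 to 8.02, 8.72 to 8.79 and 8.09 to 8.27 on the HC11-FL arrays, 7.65 to 7.74, 8.51 to 8.64 and 7.21 to 7.45 on the HC11-mutB1 arrays, and 8.34 to 8.38, 8.43 to 8.46 and 9.26 to 9.44 on the HC11-ΔSAP arrays. The part of these markers in the results below was not tested. The Mkl1 probeset (Mrtfa in the annotation) read 10.08, 9.86 and 9.92 in HC11-FL, 9.89, 9.83 and 9.76 in HC11-mutB1, and 9.55, 9.47 and 9.41 in HC11-ΔSAP, where it was lower than in HC11-FL (log2 difference −0.48 ± 0.07 SE, adjusted p = 0.00177 in limma). Whether its probes cover the stretch deleted in HC11-ΔSAP was not checked, so this value does not show lower expression of the construct. By Western blot, the paper reports roughly equal levels of the Mkl1 protein variants.

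Respiratory chain transcripts differed little between the strains. Against HC11-FL, 10 of the 90 members were higher in HC11-mutB1 cells (11.1%) and 4 were lower (4.44%), at an adjusted p of at most 0.01 in limma. Over all expressed genes, 15.7% were higher and 10.6% were lower in the same comparison. In HC11-ΔSAP cells 11 members were higher (12.2%) and 4 were lower (4.44%), where 16% and 12% of expressed genes were called. HC11-ΔSAP differed from HC11-mutB1 in 5 higher members (5.56%) and 2 lower members (2.22%), against 9.86% and 10.6% of expressed genes. The members' shares were thus below the share of all expressed genes in every comparison and direction.

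No member reached a 2-fold difference in limma in any of the 3 comparisons, also among the 42, 31 and 33 members with an unadjusted p under 0.05. Of all expressed genes, 3.88%, 4.13% and 3.89% were called at 2-fold or more. The largest difference of any member was 1.61-fold (Ndufb6, HC11-mutB1 over HC11-FL). The median log2 difference over the 90 members was −0.01 for HC11-mutB1 and 0.03 for HC11-ΔSAP against HC11-FL, and 0.05 between HC11-ΔSAP and HC11-mutB1, while over all expressed genes it was −0.01, 0.00 and 0.02. The SE of a member's difference was 0.04 to 0.12. For all 76, 75 and 83 members not called in the 3 comparisons, the 95% interval of the difference stayed within 1.5-fold in either direction.

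**Figure D1:**
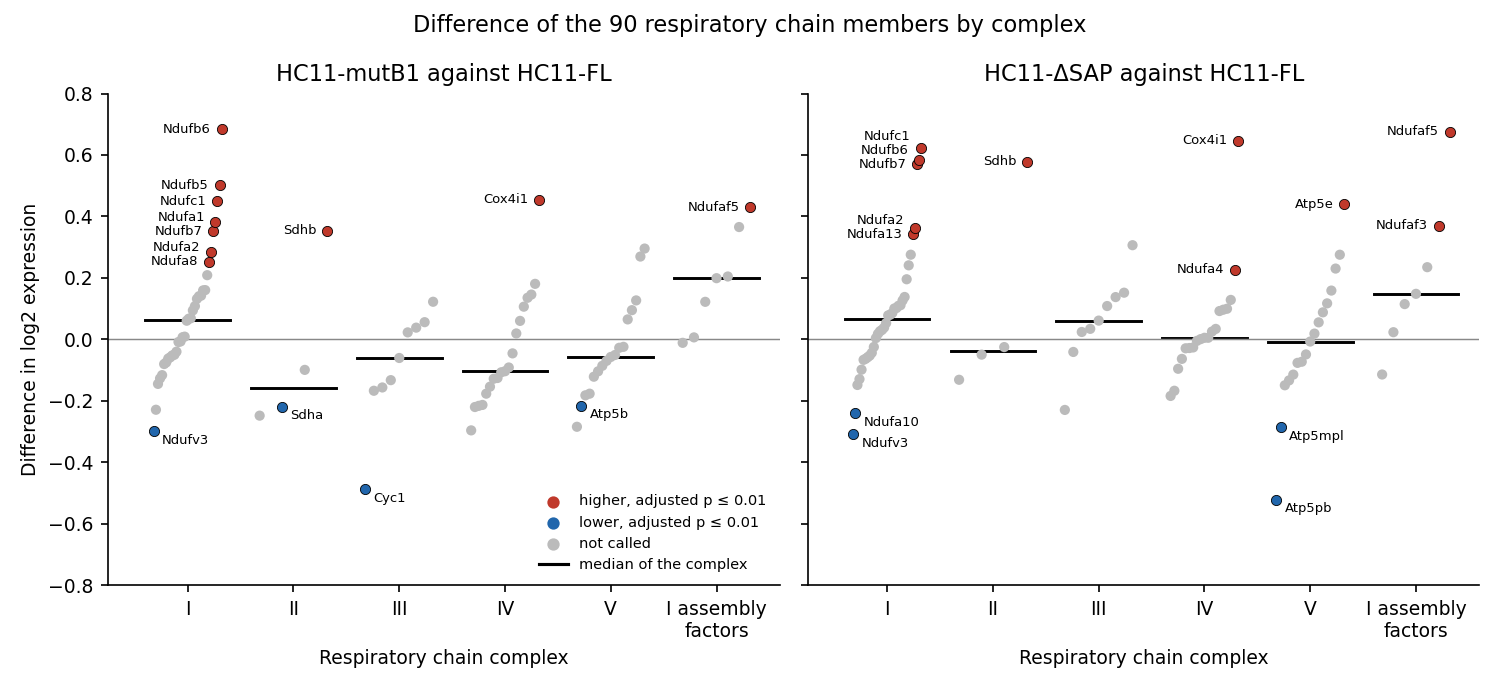
Difference in log2 expression (vertical axis) of each of the 90 members against HC11-FL, grouped by complex, in HC11-mutB1 (left) and HC11-ΔSAP cells (right). Each point is 1 gene, coloured by its limma call, and bars are medians of a complex. In HC11-mutB1 the complex I median (0.06) lies above 0 and the medians of complexes II to V (−0.16, −0.06, −0.10 and −0.06) lie below it, and no point is past 0.7 in either direction.

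The plot of differences by complex separates complex I from the others in HC11-mutB1 cells only by small amounts. Complex I held 7 of the 10 members that were higher there, with a median log2 difference of 0.06 over its 34 members. These were 20.6% of complex I, beside 15.7% of all expressed genes, and nothing particular to the complex was tested. The medians of complexes II, III, IV and V were −0.16, −0.06, −0.10 and −0.06. In HC11-ΔSAP cells the medians were 0.07, −0.04, 0.06, 0.01 and −0.01 from complex I to complex V. Taken per array as the median over members of the deviation from each member's own mean, these medians had an SD between arrays of a strain of 0.02 (complexes I, II and IV), 0.03 (complex V) and 0.05 (complex III). When each array was centred on its own median, the complex I median in HC11-mutB1 moved to 0.02. The 7 assembly factors of complex I had medians of 0.20 in HC11-mutB1 and 0.15 in HC11-ΔSAP, with 6 of 7 above 0 in each. Of 13157 expressed genes, 6260 and 6615 were above 0. Called higher were 1 (14.3%) and 2 (28.6%) of the 7, beside 15.7% and 16% of expressed genes, and 0 were lower.

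Of the 34 complex I members 7 were higher and 1 was lower in HC11-mutB1, and 5 were higher (14.7%) and 2 lower (5.88%) in HC11-ΔSAP, where 16% and 12% of expressed genes were called. The called ones were accessory subunits, which surround the catalytic core and serve in its assembly and stability. Ndufb6, an accessory subunit of the membrane arm, read 10.05, 10.05 and 9.98 in HC11-FL, 10.71, 10.76 and 10.66 in HC11-mutB1, and 10.49, 10.61 and 10.74 in HC11-ΔSAP. Both mutant strains lay above HC11-FL on every array, and they overlapped each other. The difference from HC11-FL was 0.68 ± 0.07 (SE, adjusted p = 0.000234) in HC11-mutB1, which is 1.61-fold, and 0.59 ± 0.07 (adjusted p = 0.000492) in HC11-ΔSAP.

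Ndufc1, another accessory subunit of the membrane arm, read 9.32, 9.28 and 9.21 in HC11-FL, 9.72, 9.76 and 9.67 in HC11-mutB1, and 9.71, 9.96 and 10.00 in HC11-ΔSAP. Its 3 HC11-FL arrays were the lowest of the 9. The difference from HC11-FL was 0.45 ± 0.08 (adjusted p = 0.00496) in HC11-mutB1 and 0.62 ± 0.08 (adjusted p = 0.000821) in HC11-ΔSAP, and a second probeset of the gene gave 0.50 and 0.63, both called. Ndufb7, also of the membrane arm, read 8.89, 8.79 and 8.73 in HC11-FL, 9.16, 9.19 and 9.11 in HC11-mutB1, and 9.38, 9.36 and 9.38 in HC11-ΔSAP. Its 3 strains did not overlap, and the differences from HC11-FL were 0.35 ± 0.05 (adjusted p = 0.00172) and 0.57 ± 0.05 (adjusted p = 0.000117). Ndufa2 differed from HC11-FL by 0.28 and 0.36, both higher (adjusted p = 0.00792 and 0.00206).

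Ndufb5 differed in HC11-mutB1 cells alone among the strains. It read 9.39, 9.46 and 9.31 in HC11-FL, 9.86, 9.84 and 9.96 in HC11-mutB1, and 9.40, 9.49 and 9.52 in HC11-ΔSAP. The HC11-mutB1 arrays stood above all 6 others, by 0.50 ± 0.06 against HC11-FL (adjusted p = 0.000584), and HC11-ΔSAP was lower than HC11-mutB1 by 0.42 on the log2 scale (difference −0.42 ± 0.06, adjusted p = 0.00198). Ndufa1 and Ndufa8, accessory subunits of complex I, were higher in HC11-mutB1 by 0.38 and 0.25 (adjusted p = 0.0038 and 0.00407), with 0.10 and 0.08 in HC11-ΔSAP (adjusted p = 0.393 and 0.295). Their difference between HC11-ΔSAP and HC11-mutB1 was −0.28 and −0.17 and was not called (adjusted p = 0.0206 and 0.0306). Ndufa13, also known as GRIM-19, was higher in HC11-ΔSAP by 0.34 (adjusted p = 0.00708) and at 0.14 in HC11-mutB1 (adjusted p = 0.215).

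The lower members of complex I were few. Ndufv3, a small accessory subunit of the NADH-oxidising module, was lower by 0.30 in HC11-mutB1 (difference −0.30 ± 0.06, adjusted p = 0.00796) and by 0.31 in HC11-ΔSAP (difference −0.31 ± 0.06, adjusted p = 0.00629). Ndufa10 had almost the same difference in both strains, −0.23 (adjusted p = 0.0111) and −0.24 (adjusted p = 0.00827), with the second alone past the threshold. Of the catalytic core, Ndufv1, which binds NADH and FMN, gave −0.06 ± 0.04 and 0.05 ± 0.04. Ndufs1, the largest iron-sulfur subunit, gave 0.14 ± 0.06 and 0.20 ± 0.06 (adjusted p = 0.129 and 0.0412). Neither core subunit was called in any comparison.

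Of the complex I assembly factors, Ndufaf5, which modifies the core subunit Ndufs7, had the largest difference of any member in HC11-ΔSAP. It read 5.26, 5.52 and 5.23 in HC11-FL, 5.79, 5.78 and 5.73 in HC11-mutB1, and 5.94, 6.07 and 6.02 in HC11-ΔSAP, without overlap between the strains. The differences from HC11-FL were 0.43 ± 0.08 (adjusted p = 0.00671) and 0.68 ± 0.08 (adjusted p = 0.000568). Ndufaf3, an assembly factor of the matrix arm, read 6.53, 6.48 and 6.45 in HC11-FL, 6.66, 6.69 and 6.72 in HC11-mutB1, and 6.88, 6.80 and 6.89 in HC11-ΔSAP. It rose by 0.37 ± 0.04 in HC11-ΔSAP (adjusted p = 0.000629) and stood at 0.20 ± 0.04 in HC11-mutB1 (adjusted p = 0.0144). Ndufaf1, which acts on the membrane arm, had the largest difference that was not called in HC11-mutB1 (0.37, adjusted p = 0.0136).

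The 4 subunits of complex II, which is also the succinate dehydrogenase of the citric acid cycle, did not move together. Sdhb, its iron-sulfur subunit, read 8.48, 8.48 and 8.55 in HC11-FL, 8.88, 8.84 and 8.84 in HC11-mutB1, and 9.05, 9.07 and 9.12 in HC11-ΔSAP. The 3 strains were separate on every array, with differences from HC11-FL of 0.35 ± 0.04 (adjusted p = 0.000625) and 0.58 ± 0.04 (adjusted p = 4.2e-05), the latter 1.49-fold, and of 0.22 between HC11-ΔSAP and HC11-mutB1 (adjusted p = 0.0084). Sdha, the flavoprotein that oxidises succinate, went the other way in HC11-mutB1. It read 9.78, 9.83 and 9.89 in HC11-FL, 9.61, 9.60 and 9.63 in HC11-mutB1, and 9.78, 9.85 and 9.80 in HC11-ΔSAP, and was lower in HC11-mutB1 by 0.22 (difference −0.22 ± 0.04, adjusted p = 0.0091). The membrane anchors Sdhc and Sdhd had differences of −0.25 and −0.10 in HC11-mutB1 (adjusted p = 0.0341 and 0.182) and −0.13 and −0.05 in HC11-ΔSAP (adjusted p = 0.259 and 0.563).

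**Figure D2:**
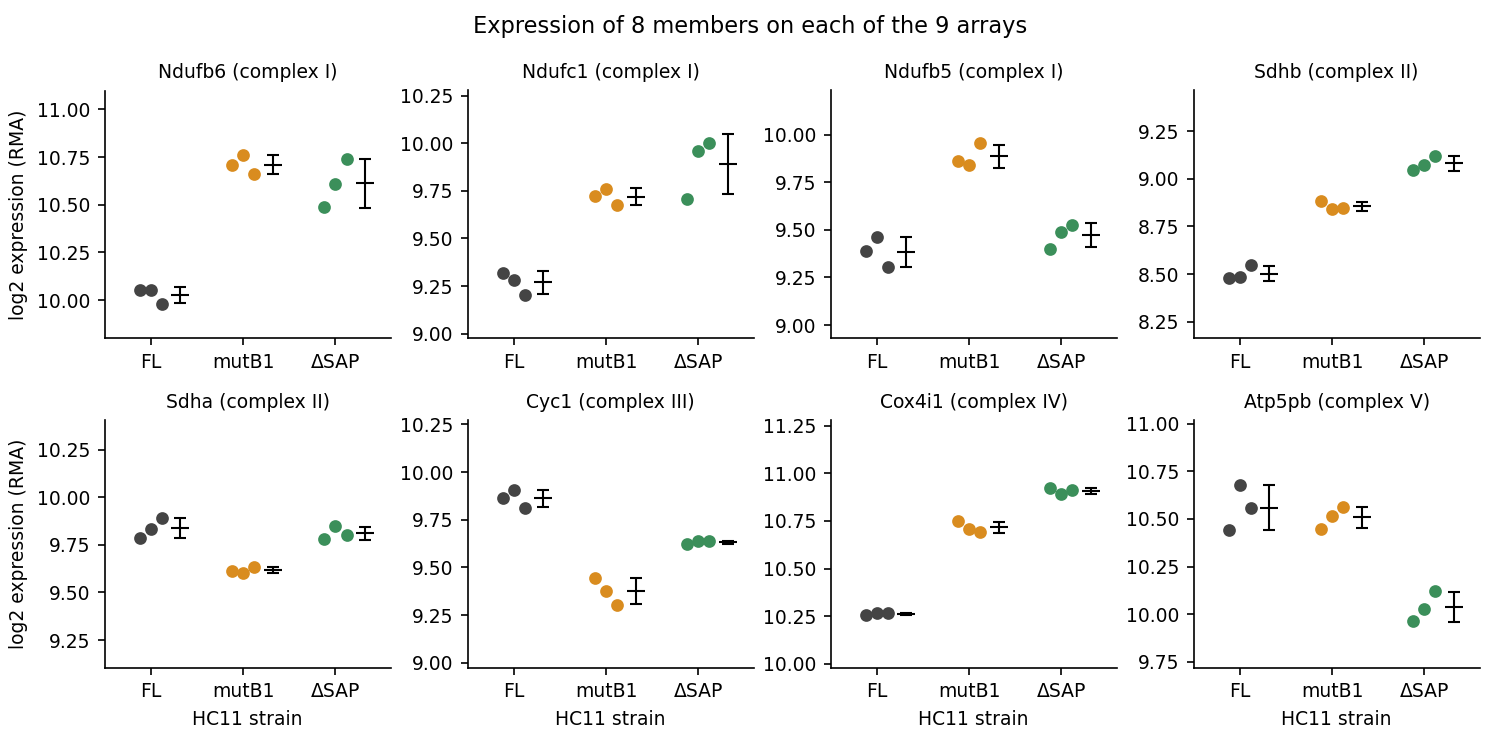
Log2 expression (RMA, vertical axes, each spanning 1.3) of 8 members on the 3 arrays of each strain, with the mean and SD beside the points. Sdhb and Cox4i1 separate all 3 strains, Ndufb5, Sdha and Atp5pb set 1 strain apart from the other two, and Cyc1 is highest in HC11-FL.

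In complex III, which oxidises coenzyme Q, Cyc1 was the 1 of 9 members called against HC11-FL. It was lower in HC11-mutB1 (11.1% of the complex, beside 10.6% of expressed genes). It encodes cytochrome c1, the subunit that hands electrons to cytochrome c. It read 9.87, 9.91 and 9.81 in HC11-FL, 9.44, 9.38 and 9.30 in HC11-mutB1, and 9.62, 9.64 and 9.64 in HC11-ΔSAP. The strains did not overlap, and the difference from HC11-FL was −0.49 ± 0.05 (adjusted p = 0.000234) in HC11-mutB1 and −0.23 ± 0.05 (adjusted p = 0.0115) in HC11-ΔSAP. HC11-ΔSAP exceeded HC11-mutB1 by 0.26 (adjusted p = 0.00831). The other core subunits of the complex were nearer to 0. Uqcrfs1, the Rieske iron-sulfur protein, gave −0.06 and 0.03, and the core proteins Uqcrc1 and Uqcrc2 gave 0.02 and −0.13 in HC11-mutB1, and 0.11 and 0.02 in HC11-ΔSAP, none of them called. Uqcrh, the hinge protein, exceeded its HC11-mutB1 level in HC11-ΔSAP by 0.30 ± 0.05 (adjusted p = 0.00523), and Uqcr10, a small subunit, had the largest difference from HC11-FL that was not called in HC11-ΔSAP (0.31, adjusted p = 0.0276).

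In complex IV, which reduces oxygen, Cox4i1 had the smallest adjusted p of all members in both comparisons with HC11-FL. It encodes the ubiquitous isoform of subunit 4, one of the nuclear-encoded subunits of the complex. It read 10.25, 10.27 and 10.26 in HC11-FL, 10.75, 10.71 and 10.69 in HC11-mutB1, and 10.92, 10.89 and 10.91 in HC11-ΔSAP. The 3 strains were separate, with differences from HC11-FL of 0.45 ± 0.04 (adjusted p = 8.22e-05) and 0.65 ± 0.04 (adjusted p = 1.28e-05, 1.56-fold), and of 0.19 between HC11-ΔSAP and HC11-mutB1 (adjusted p = 0.00959). Ndufa4, a subunit once assigned to complex I, was higher by 0.23 ± 0.05 in HC11-ΔSAP (adjusted p = 0.00931) and at 0.14 in HC11-mutB1 (adjusted p = 0.0864).

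In complex IV, Cox4i1 and Ndufa4 were called where Cox4i2 and Ndufa4l2 were not, and no ratio of isoforms was tested. Cox4i2, the second isoform of subunit 4, read 4.41 to 4.74 on the 9 arrays and gave −0.05 and −0.0047 against HC11-FL. The heart and muscle isoforms Cox6a2, Cox7a1 and Cox8b read 5.15 to 5.71, 3.28 to 3.96 and 3.88 to 4.22, and the testis isoforms Cox6b2, Cox7b2 and Cox8c read 3.39 to 3.90, 2.72 to 3.31 and 4.43 to 4.93. Ndufa4l2, the relative of Ndufa4, read 3.79 to 4.08. The means of Cox7a1, Cox6b2 and Cox7b2 lay below the level of 4 set here for expressed genes. None of these isoforms was called in any comparison. The widely expressed counterparts Cox6a1, Cox6b1, Cox7a2, Cox7b and Cox8a, and the related gene Cox7a2l, had differences of −0.22 to 0.15 in HC11-mutB1 and of −0.06 to 0.09 in HC11-ΔSAP, none called.

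In complex V, 1 of 17 members was called in HC11-mutB1, as lower (5.88%, beside 10.6% of expressed genes). In HC11-ΔSAP 1 was higher (5.88%) and 2 were lower (11.8%), beside 16% and 12% of expressed genes. Atp5b, the catalytic β subunit, read 12.15, 12.18 and 12.16 in HC11-FL, 11.96, 11.94 and 11.95 in HC11-mutB1, and 11.98, 12.03 and 12.03 in HC11-ΔSAP. It was lower by 0.22 in HC11-mutB1 (difference −0.22 ± 0.04, adjusted p = 0.00438), with −0.15 in HC11-ΔSAP (adjusted p = 0.0253). Among the members called on the deposited values, Atp5b alone has a value that recurs within a strain (12.03 on 2 HC11-ΔSAP arrays), so its SE may be too small. Atp5a1, the α subunit, gave 0.07 and 0.23 (adjusted p = 0.461 and 0.0117).

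Atp5pb, subunit b of the peripheral stalk, had the largest decrease of any member. It read 10.44, 10.68 and 10.56 in HC11-FL, 10.45, 10.52 and 10.56 in HC11-mutB1, and 9.97, 10.03 and 10.12 in HC11-ΔSAP. HC11-ΔSAP lay below the other strains on every array, by −0.52 ± 0.07 against HC11-FL (adjusted p = 0.00119) and −0.47 ± 0.07 against HC11-mutB1 (adjusted p = 0.00276), and a second probeset gave −0.45 and −0.47, both called. Atp5mpl, a small proteolipid of the synthase, was lower in HC11-ΔSAP by 0.29 (difference −0.29 ± 0.04, adjusted p = 0.00164). Atp5e, the ε subunit of the central stalk, was higher in HC11-ΔSAP by 0.44 ± 0.07 (adjusted p = 0.00342) and at 0.30 ± 0.07 in HC11-mutB1 (adjusted p = 0.0252). Atp5o, which joins the stalk to the catalytic head, differed between HC11-ΔSAP and HC11-mutB1 by 0.37 ± 0.07, with HC11-ΔSAP higher (adjusted p = 0.00839). The genes Atp5g1, Atp5g2 and Atp5g3, which encode the same mature c subunit of the ring, gave −0.02, −0.07 and 0.13 in HC11-mutB1 and 0.02, −0.13 and 0.12 in HC11-ΔSAP, none called.

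With any 1 of the 9 arrays left out of the fit, 6 of the 14 calls in HC11-mutB1 held each time (Ndufb5, Ndufb6, Ndufb7, Sdhb, Cyc1 and Cox4i1). In HC11-ΔSAP against HC11-FL, 9 of 15 held each time (Ndufb6, Ndufb7, Ndufc1, Ndufaf3, Ndufaf5, Sdhb, Cox4i1, Atp5mpl and Atp5pb), and between HC11-ΔSAP and HC11-mutB1 Ndufb5 alone of 7 did. The other called members were lost in at least 1 of the 9 fits, with adjusted p-values of at most 0.036, 0.0366 and 0.0378 in the 3 comparisons. Ndufa2 in HC11-ΔSAP was lost in 1 of the 9 fits, the one without the third HC11-FL array (adjusted p = 0.01). Ndufa2 and Sdha in HC11-mutB1, and Sdhb, Cyc1, Cox4i1 and Atp5o between HC11-ΔSAP and HC11-mutB1, were lost whichever array was left out.

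The rule of membership used only gene symbols, so position in the genome was an independent property of the members. For each member the 10 nearest expressed genes on either side, other members excluded, were taken from the gene order of the RefSeq annotation (GRCm38.p6). The members' differences resembled those of their neighbours. Across the 90 members, a member's log2 difference and the median difference of its neighbours had a Pearson r of 0.755 (Spearman rho 0.655) for HC11-mutB1 and 0.764 (rho 0.647) for HC11-ΔSAP against HC11-FL, and 0.600 (rho 0.488) for HC11-ΔSAP against HC11-mutB1. Over 13119 expressed genes r was 0.295, 0.317 and 0.240, and rho was 0.388, 0.369 and 0.290. Expressed genes are not alike to the members, since 3.88%, 4.13% and 3.89% of them were called at 2-fold or more and no member was. Genes matched to the members in level and size of difference were not compared. Genes share arrays and chromosomes and are not independent replicates, so these values are descriptions.

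**Figure D3:**
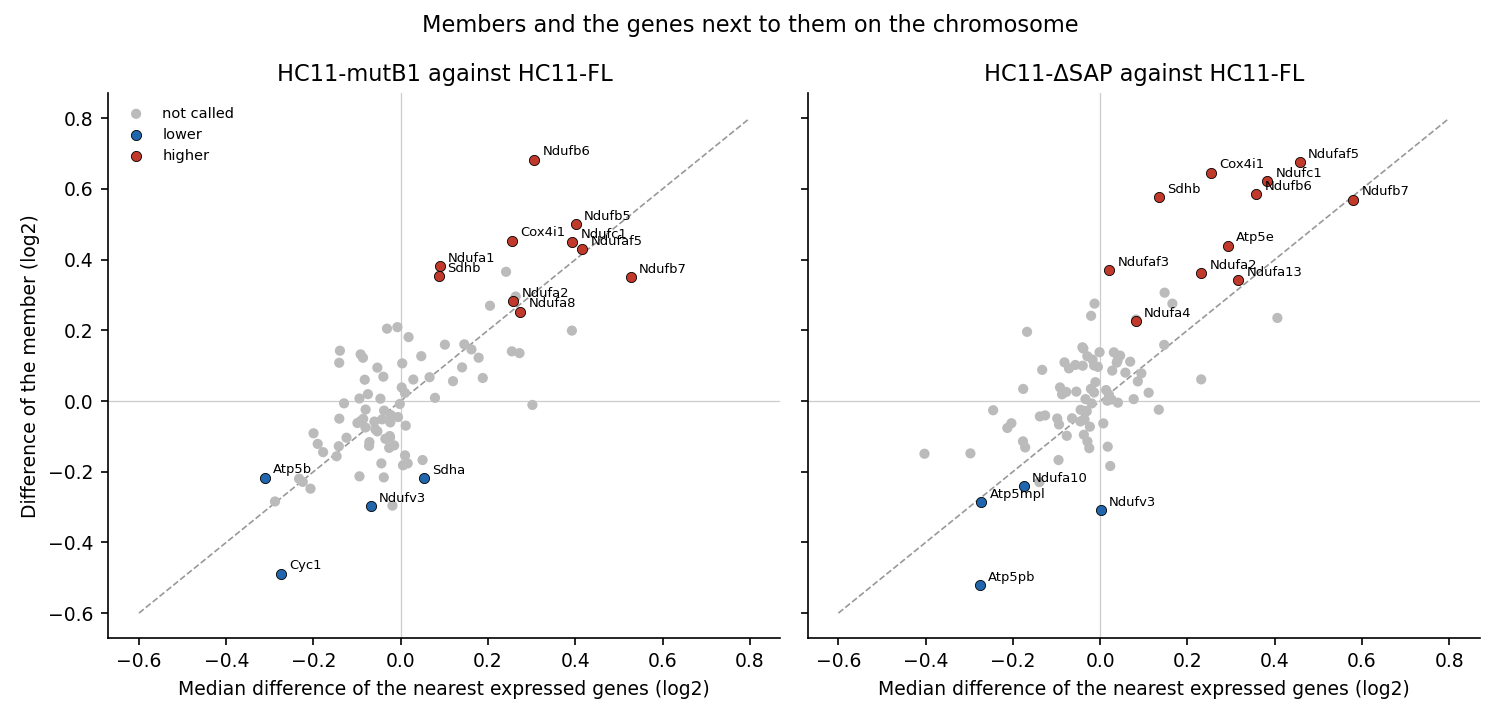
Log2 difference of each of the 90 members (vertical axis) against the median log2 difference of the nearest expressed genes on its chromosome (horizontal axis), in HC11-mutB1 (left) and HC11-ΔSAP cells (right) against HC11-FL. The dashed line marks equal values. Ndufb7, Ndufaf5 and Ndufc1 lie to the upper right with their neighbours, while Sdhb lies above its neighbours (medians 0.09 and 0.13), as does Ndufaf3 in HC11-ΔSAP (0.02).

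Of the called members, 13 of 14 in HC11-mutB1 and 14 of 15 in HC11-ΔSAP had the sign of their neighbours' median, and in 10 and 12 of them that median was past 0.1 on the log2 scale in the member's direction. The same counts were not made over all called expressed genes, so they show nothing particular to the members. Ndufb7 differed by 0.35 and 0.57 from HC11-FL, and the median of its neighbours differed by 0.53 and 0.58. Ndufaf5 differed by 0.43 and 0.68, and its neighbours by 0.42 and 0.46. For Ndufc1 the neighbours' medians were 0.39 and 0.38, and 18 and 16 of 20 neighbours were above 0. Ndufb5, which differed in HC11-mutB1 only, had neighbours at 0.40 in HC11-mutB1 and 0.03 in HC11-ΔSAP. Atp5pb, which differed in HC11-ΔSAP only, had neighbours at −0.09 and −0.28, with 19 of 20 below 0 in HC11-ΔSAP. Ndufb5, Ndufc1 and Atp5pb all lie on chromosome 3, whose expressed genes had a median of −0.01 and 0.00 as a whole.

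Whole chromosomes also differed. On chromosome 8, which holds Cox4i1, Ndufb7 and Ndufa13, the median of 730 other expressed genes was 0.23 in HC11-mutB1 and 0.26 in HC11-ΔSAP, and 40.4% and 45.6% of these genes were called higher. On chromosome 2, which holds 8 members, Ndufa8, Ndufaf5 and Atp5e among them, the median was 0.18 and 0.08. On chromosome 12, which holds Atp5mpl, it was −0.01 and −0.22, and on chromosome 1, which holds Ndufa10, it was −0.13 and −0.15. Gene copy number was not measured, and what these shared shifts come from was not tested.

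The neighbours' median was then subtracted from each gene on each array, relative to the HC11-FL mean, and limma was run again. Of the members 3 were called in HC11-mutB1, 5 in HC11-ΔSAP, and 2 between HC11-ΔSAP and HC11-mutB1, where 20.2%, 21.6% and 16.8% of expressed genes were called. Sdhb remained higher in both comparisons with HC11-FL, by 0.28 (adjusted p = 0.00982) and 0.42 (adjusted p = 0.00114). Sdha remained lower in HC11-mutB1 (difference −0.28, adjusted p = 0.00417). Cox4i1 remained higher in HC11-ΔSAP, by 0.39 (adjusted p = 0.000533), and gave 0.21 in HC11-mutB1 (adjusted p = 0.0128). Ndufaf3 remained higher in HC11-ΔSAP by 0.35 (adjusted p = 0.00149). These are the 2 and 3 calls shared with the values as deposited.

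New calls also arose, and others ended. Ndufs1, whose neighbours had medians of −0.14 and −0.17, was called higher by 0.27 in HC11-mutB1 and 0.36 in HC11-ΔSAP (adjusted p = 0.00469 and 0.000978). Atp5b changed sign in HC11-ΔSAP, where its neighbours had a median of −0.40. It went from −0.15, not called, to a call of 0.23 (adjusted p = 0.00608 in limma). The 2 calls between HC11-ΔSAP and HC11-mutB1 were Sdha (0.28) and Cox6b1 (0.21). Cox6b1 has the same deposited value on all 3 HC11-FL arrays (9.75), so its SE may be too small too. Ndufb6 kept a difference of 0.37 in HC11-mutB1 that was not called (adjusted p = 0.0175), and Cyc1 one of −0.20 (adjusted p = 0.0325). Ndufb7 went from 0.35 to −0.17 in HC11-mutB1 and from 0.57 to 0.03 in HC11-ΔSAP. Over the called members the median size of the difference went from 0.37 to 0.19 in HC11-mutB1 and from 0.44 to 0.21 in HC11-ΔSAP. These members had been called on the values before subtraction, and over all 90 members the median size went from 0.13 to 0.07 in HC11-mutB1 and from 0.101 to 0.0984 in HC11-ΔSAP.

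**Figure D4:**
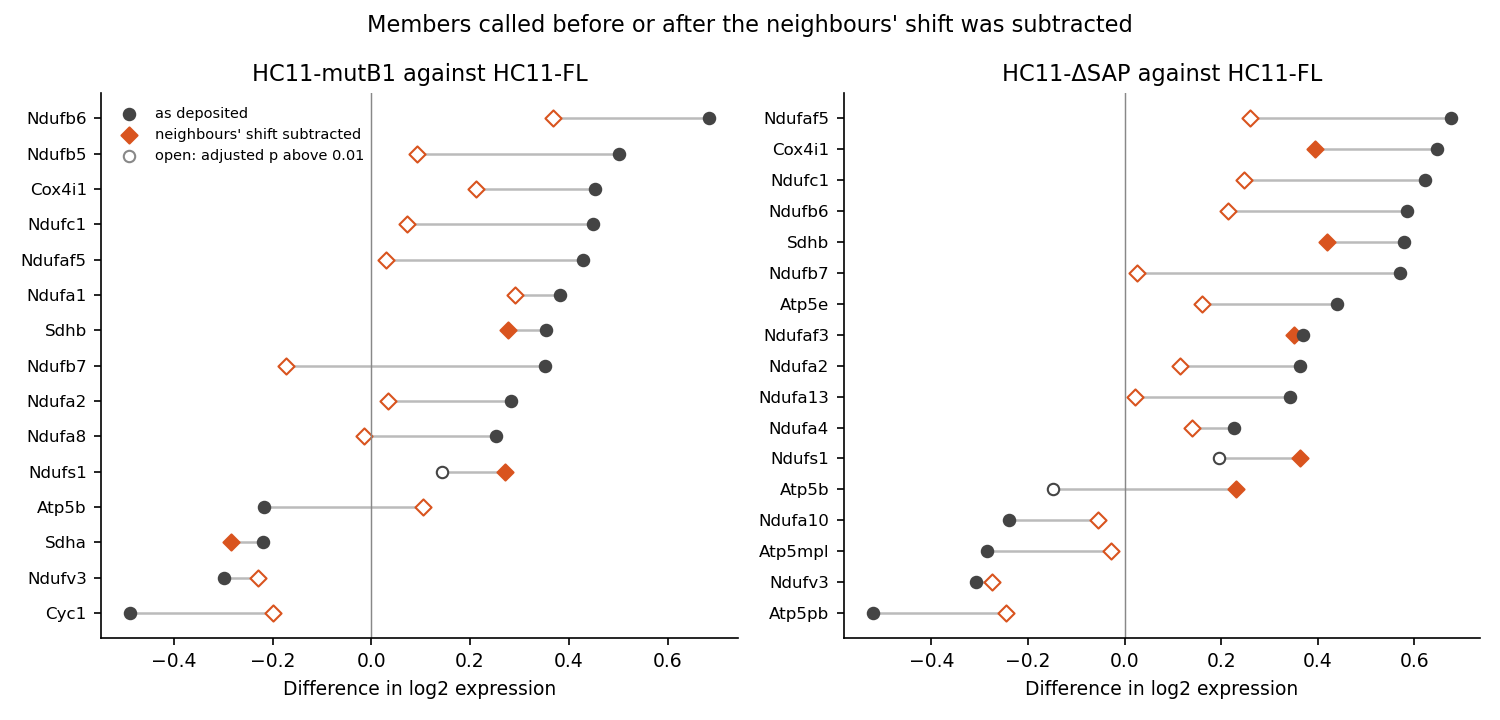
Log2 difference from HC11-FL (horizontal axis) of members called before or after subtraction of their neighbours' shift, in HC11-mutB1 (left) and HC11-ΔSAP cells (right). Circles are values as deposited, diamonds values after subtraction, and filled symbols have an adjusted p of at most 0.01. Sdhb is filled before and after in both panels, as are Sdha on the left and Cox4i1 and Ndufaf3 on the right.

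Promoters are shown for a few members picked as examples. Of these, Sdhb and Ndufaf3 kept a call after that subtraction, and Ndufb6 and Ndufc1 lost theirs. The sequences are the 250 bases before the start of the gene in RefSeq, build GRCm38.p6, written 5′ to 3′ on the strand of the gene. Capitals mark matches, on either strand, to the NRF1 motif GCATGCGC or to the CCAAT box (ATTGG on the other strand). Sdhb lies at chr4:140961021-140961270 on the + strand, Ndufaf3 at chr9:108567437-108567686 on the − strand, Ndufb6 at chr4:40279422-40279671 on the − strand and Ndufc1 at chr3:51408956-51409205 on the − strand.
Sdhb: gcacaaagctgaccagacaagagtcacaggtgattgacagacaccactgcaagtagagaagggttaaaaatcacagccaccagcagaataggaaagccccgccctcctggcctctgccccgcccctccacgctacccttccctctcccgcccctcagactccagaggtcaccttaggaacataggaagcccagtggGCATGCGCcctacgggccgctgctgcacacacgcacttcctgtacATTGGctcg
Ndufaf3: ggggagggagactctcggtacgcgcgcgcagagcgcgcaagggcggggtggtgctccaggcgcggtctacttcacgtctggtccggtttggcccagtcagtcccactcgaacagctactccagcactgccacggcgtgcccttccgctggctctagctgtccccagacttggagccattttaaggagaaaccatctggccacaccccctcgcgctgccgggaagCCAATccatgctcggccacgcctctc
Ndufb6: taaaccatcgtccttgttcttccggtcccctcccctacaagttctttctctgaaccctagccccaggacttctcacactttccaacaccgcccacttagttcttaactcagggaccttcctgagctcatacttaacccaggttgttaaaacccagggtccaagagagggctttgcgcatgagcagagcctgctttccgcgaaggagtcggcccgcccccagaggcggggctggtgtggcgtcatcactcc
Ndufc1: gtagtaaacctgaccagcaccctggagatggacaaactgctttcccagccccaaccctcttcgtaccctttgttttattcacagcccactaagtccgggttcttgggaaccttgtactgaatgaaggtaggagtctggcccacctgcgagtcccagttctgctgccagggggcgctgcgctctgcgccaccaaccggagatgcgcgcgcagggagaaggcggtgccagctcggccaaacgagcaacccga

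The Sdhb promoter held an NRF1 motif that begins 54 bases before the start and a CCAAT box that begins 9 bases before it. Ndufaf3 held a CCAAT box, and the stretches of Ndufb6 and Ndufc1 held none of the motifs searched. Ndufc1 has a YY1 match in the 50 bases after its start, which are not printed, and is counted with that motif below. Motifs also occur in other members that lost their calls after the subtraction. Ndufaf5 and Ndufa8 have the NRF1 motif, and Ndufa13, Ndufv3 and Atp5e have the CCAAT box. The stretches shown therefore do not divide kept from lost members by motif. NRF1 and the ETS factor GABPA are activators of nuclear genes for mitochondrial proteins. Of 73 members with a promoter of 300 bases in the table (250 before and 50 after the start), 12 held the NRF1 motif (16.4%), among them Sdhb, Ndufaf5 and Ndufa8, against 3.05% of 27025 genes. The YY1 motif AAGATGGC was in 10 members (13.7% against 3.19%), the ETS motif CCGGAAGT in 5 (6.85% against 4.31%) and the CCAAT box in 32 (43.8% against 41.1%). The CArG box, the SRF motif, was in none of the 73, against 1.81% of all genes. At so low a share, 73 promoters are too few to show a lack of it. Among the members called against HC11-FL in either strain, the NRF1 motif was in 3 of 12 higher members with a promoter and in 0 of 5 lower ones. The CCAAT box was in 4 of the 12 and 3 of the 5, the YY1 motif in 1 and 1, and the ETS motif in 0 and 0. A link between motif and direction was not tested. A match of letters does not show that a factor binds there, and no match says only that these letters are not in this window.

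Other genes of mitochondrial respiration were counted by list, beside 15.7% of expressed genes higher and 10.6% lower in HC11-mutB1, and 16% and 12% in HC11-ΔSAP. Of 12 measured enzymes of the citric acid cycle, which feeds the chain with NADH and succinate, 1 was higher and 3 were lower in HC11-mutB1, and 2 were higher and 3 lower in HC11-ΔSAP. Idh3b, a subunit of the NAD-dependent isocitrate dehydrogenase, rose by 0.34 and 0.55 (adjusted p = 0.000443 and 2.91e-05), and Ogdh, of the oxoglutarate dehydrogenase complex, rose by 0.51 in HC11-ΔSAP (adjusted p = 0.000122). Fh1, the fumarase that acts after complex II, fell by 0.53 and 0.34 (adjusted p = 0.00015 and 0.00149). Of 31 assembly factors outside the rule, 2 were higher and 3 lower in HC11-mutB1, and 2 higher and 1 lower in HC11-ΔSAP. Acad9, a complex I assembly factor, rose by 0.54 and 0.60 (adjusted p = 0.0003 and 0.000148), Uqcc1, a complex III assembly factor, by 0.40 and 0.71, and Tmem70, needed for complex V assembly, fell by 0.40 and 0.28. Of 13 genes of cytochrome c and coenzyme Q synthesis 0 were higher and 1 was lower (Coq5) in HC11-mutB1, and 2 were higher (Coq3 by 0.56 and Coq9 by 0.61) and 0 lower in HC11-ΔSAP. These counts came from limma, by the same threshold as for the members. The 2 mitochondrially encoded subunits measured of 13 listed, mt-Nd3 and mt-Co2, had differences of 0.09 and −0.04 in HC11-mutB1 and 0.16 and −0.06 in HC11-ΔSAP, neither called.

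Of 17 regulators of mitochondrial biogenesis, 0 were higher and 4 lower in each mutant strain (limma), beside the same shares of expressed genes. Myc, a growth regulator, fell from 11.20 ± 0.04 (SD, n = 3 arrays) in HC11-FL to 9.90 ± 0.03 in HC11-mutB1 and 9.97 ± 0.04 in HC11-ΔSAP, differences of −1.30 and −1.23 (adjusted p = 7.13e-07 and 9.59e-07). Twnk, the mitochondrial DNA helicase, fell by 0.40 and 0.48, and Yy1 fell by 0.42 in HC11-ΔSAP and gave −0.10 in HC11-mutB1. Of 13 HIF-linked genes that act on respiration, 8 were lower in HC11-mutB1, 7 were lower in HC11-ΔSAP and 0 were higher, beside 10.6% and 12% of expressed genes lower. Bnip3, a mitophagy receptor, fell from 10.60 ± 0.02 in HC11-FL to 9.13 ± 0.04 in HC11-mutB1 and 8.49 ± 0.07 in HC11-ΔSAP (differences −1.48 and −2.11, adjusted p = 6.11e-07 and 1.45e-07). Pdk1, the kinase that inhibits pyruvate dehydrogenase, fell by 0.70 and 1.38 (adjusted p = 0.000421 and 1.13e-05), and Higd1a fell by 1.04 in HC11-ΔSAP (adjusted p = 0.00223). Of 7 mitochondrial antioxidant enzymes, 2 were lower in HC11-mutB1, Sod2 by 0.51 and Glrx2 by 0.18, and Gsr rose by 0.53 in HC11-ΔSAP.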

How the data were processed

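Expression was measured in 3 HC11 strains with 3 arrays each. Per the labels and the study's methods, the authors deposited log2 values made by RMA (background correction, quantile normalization over the arrays and median polish by probeset) with the affy package in R 2.10.0, as the submitters' processing notes name it. RMA equalizes the array distributions, so a shift shared by all genes would not show. The 34760 probesets were fitted in limma 3.58.1 (R 4.3.3), with 1 mean per strain and 1 spread for all 9 arrays (residual degrees of freedom 6, prior 1.93). The Benjamini-Hochberg adjustment ran over every probeset, and a gene was called at an adjusted p of at most 0.01, with no fold minimum. The method was tested on simulated data. Of the members 73 had 1 probeset and 17 had several, of which the one with the highest mean was used. In 15 members a deposited value recurs within a strain. Genes were named by the array's annotation, and neighbours and promoters came from RefSeq. Alternatives included leaving out each array, other filters, array centring and subtraction of the shift of a chromosome or of neighbours, the last pair chosen after seeing the data. Named genes were, per comparison, the 10 called members with the largest fold in each direction and no overlap between strains, the largest difference in each complex, isoform families, core subunits, and the 3 largest called differences of each list against HC11-FL. The members and lists were chosen with earlier results of these data known. Raw scans were not analysed here, and the number of arrays limits the precision.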

Additional observations from a re-analysis of the deposited data

How the results depend on the processing

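Counts and medians are given here where they moved, counts by over 1.5 times and medians by over the SD between arrays, and those not given stayed within these bounds. With each array left out in turn, the counts of higher and lower members ranged from 5 to 9 and from 1 to 3 in HC11-mutB1 against HC11-FL, from 7 to 11 and from 2 to 3 in HC11-ΔSAP against HC11-FL, and from 0 to 1 and from 1 to 2 between HC11-ΔSAP and HC11-mutB1. The medians that moved ranged, in HC11-mutB1, from −0.0917 to −0.0101 (complex III) and from −0.1145 to −0.0784 (complex IV). In HC11-ΔSAP they ranged from 0.0243 to 0.0597 (all members), 0.0343 to 0.0818 (complex I) and 0.0304 to 0.1181 (complex III), and between the mutant strains from −0.0057 to 0.0283 (complex I), 0.1346 to 0.1788 (complex II) and 0.0611 to 0.1198 (complex IV). In fits of only the strains compared, 5 were higher and 1 lower in HC11-mutB1, 2 were lower in HC11-ΔSAP, and 0 were higher between the mutant strains. With the replicate number as a block (replicate block), 1 was lower in HC11-mutB1, 2 were lower in HC11-ΔSAP and 0 were higher between the mutant strains. Deviations of same-numbered arrays of different strains correlated at −0.107 to 0.257, and those of differently numbered arrays at −0.261 to 0.230. These ranges overlap and do not settle whether the numbers pair the arrays. At an adjusted p of at most 0.05, 15 were higher and 9 lower in HC11-mutB1, 15 were higher and 7 lower in HC11-ΔSAP, and 14 were higher and 7 lower between the mutant strains. With trend and robust variances these counts were 13 and 6, 13 and 7, and 10 and 6. With only probesets of a mean of at least 4, 8 were higher between the mutant strains, and the complex IV median was −0.0683 in HC11-mutB1 and 0.0781 between them. Shares of all expressed genes were not counted for the settings named so far. Whether the members' counts moved more than those of other genes is therefore not known. With a 2-fold minimum every count was 0 in limma. Without assembly factors the median of the members was −0.0399 in HC11-mutB1. Centred arrays gave medians of −0.0536 (all members), 0.0202 (complex I), −0.2028 (complex II), −0.1474 (complex IV) and −0.1010 (complex V) in HC11-mutB1, and 0.0889, 0.0374, 0.1943, 0.1510 and 0.0819 for the same sets between the mutant strains. The mean over a gene's probesets gave −0.1038 and −0.0488 for complex V in HC11-mutB1 and HC11-ΔSAP. With the chromosome shift subtracted, 6 were higher and 2 lower in HC11-mutB1, 2 were lower in HC11-ΔSAP and 2 higher between the mutant strains. Of expressed genes, 21.9%, 24.7% and 18.6% were called in either direction in these 3 comparisons at that setting. The medians were −0.1023 (complex II) and −0.0446 (complex IV) in HC11-mutB1, 0.0143 (complex II) and 0.0311 (complex IV) in HC11-ΔSAP, and 0.1796 (complex II) between the mutant strains. With the neighbours' shift subtracted, the counts were 2 and 1, 5 and 0, and 2 and 0, with medians of 0.0323 (complex I), −0.0625 (complex II), −0.0664 (complex IV) and 0.0181 (complex V) in HC11-mutB1, 0.0276 (complex II) and 0.0597 (complex IV) in HC11-ΔSAP, and 0.1244 (complex II) between the mutant strains. In HC11-mutB1 that setting turned the sign of Atp5b (0.1039, adjusted p = 0.134), Ndufa8 (−0.0150, adjusted p = 0.863) and Ndufb7 (−0.1731, adjusted p = 0.0955). Among the named genes, no other difference called on the deposited values changed sign under any alternative run. Differences not called on those values were not counted here, and Atp5b in HC11-ΔSAP was one that turned (−0.1492 to 0.2298). For the other settings the cause of a change was not tested. Among the members, the smallest difference called was 0.19 on the log2 scale (Cox4i1, between the mutant strains).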

Other observations

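A further 6 probesets fit the symbol rule in part, because they carry a second symbol, and were left out of all counts. Those shared by Cox7c and Gm12338 had mean log2 levels of 4.04, 8.52 and 9.75, with differences from HC11-FL of 0.66, 0.21 and 0.18 in HC11-mutB1 and 0.45, 0.16 and 0.09 in HC11-ΔSAP. The probeset shared by Ndufs5 and Ndufs5-ps, at a mean of 7.67, gave 0.03 and 0.16. Those shared by Ndufb4 and Ndufb4b, at means of 8.94 and 3.12, gave −0.02 and 0.19 in HC11-mutB1 and 0.20 and 0.50 in HC11-ΔSAP. In limma, none had an adjusted p of at most 0.01 in any comparison, and the smallest was 0.0189 (Cox7c and Gm12338, HC11-mutB1).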
